A study of Sus scrofa with 9 samples.

Results

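The genes described here are the cell cycle brake of the p53 pathway and its companions: the cyclin-dependent kinase inhibitors CDKN1A (p21), CDKN1B (p27) and CDKN2C (p18), the p53 antagonist MDM2, the pocket protein RB1, the stress genes GADD45A, GADD45B and CCNG1, and GLB1, the lysosomal enzyme stained in senescence assays. They were taken as every probe set (a group of short probes read as 1 value) whose platform annotation gave exactly 1 gene symbol from that list of 9 genes. This found 10 probe sets of 7 genes, out of 23999 probe sets that are no controls and 6765 genes with a symbol of their own. No probe set carried the symbol MDM2 or RB1, so these 2 genes were not analysed here. The question put to them was whether cells at passage 4 carried an arrest signature.

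RNA of coronary arterial endothelial cells of the pig, the cells that line the arteries of the heart, was measured on 9 Affymetrix porcine arrays, 3 for each of 3 groups. Passage 1 cells, the controls, had spent 1 week in primary culture. Passage 4 cells had been passaged once a week and are named senescent in the labels. Regenerated cells came from endothelium that had regrown in the animal after the artery had been stripped of it. They were scraped off and cultured with no further passage. The labels name no added agent, genetic change, strain or age for any group. Labelled RNA was made from 1 µg of total RNA in the first 2 groups and from 0.5 to 1 µg in the regenerated group, so RNA input and that group cannot be told apart. The labels do not tie the arrays of a group to separate animals or cultures, so the p-values speak for the spread among these arrays alone, and that spread could be technical.

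When DNA is damaged or chromosome ends wear short, p53 switches on CDKN1A, whose protein blocks the kinases that drive cells into S phase. Rb-family proteins then stay bound to E2F factors and, within the DREAM complex, hold down the genes of DNA replication and mitosis. Senescent endothelial cells are known for this arrest, for a large lysosomal compartment that stains for β-galactosidase and for a secreted mix of cytokines and proteases.

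No member rose or fell past the threshold at passage 4 against passage 1. In that comparison 0 of the 9 tested member probe sets passed an adjusted p of 0.05 (limma's moderated test with Benjamini-Hochberg adjustment over all tested probe sets), where 4.79% of all 15299 tested probe sets did. The number with an unadjusted p under 0.05 was 3 of 9, against 19.7% of all. In regenerated cells against passage 1 cells 1 of 9 rose, GADD45A, where 2.98% of all rose. Between passage 4 and regenerated cells 5 of 9 differed against 12.5% of all: CDKN2C was higher at passage 4, where 8.14% of all were, and 4 probe sets, of CDKN1A, CDKN1B, GADD45A and GADD45B, were lower, where 4.35% of all were. CDKN2C entered the test only through the arrays on which it was high, so its call supports nothing, and 4 of the 8 other probe sets differed. The first 2 comparisons share the passage 1 arrays.

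The arrays did not all treat RNA alike, and this touches several members. Bacterial transcripts spiked into the samples (dap and thr) lost more of their 5′ signal on some arrays than on others. The log2 difference of their 5′ and 3′ signals was -1.92 to -2.41 on the 3 passage 4 arrays and -2.25 on passage 1 array 1, but -4.37 to -5.31 on the 3 regenerated arrays and -4.69 and -4.42 on passage 1 arrays 2 and 3. The division into these 2 kinds of array almost follows the groups. A fit with the kind as a block compares passage 4 with passage 1 array 1 alone, and regenerated cells with passage 1 arrays 2 and 3. In limma that fit called 0 of the 9 member probe sets between passage 4 and regenerated cells, with 2 at an unadjusted p under 0.05, and 35 of all 15299 (0.229%). Its value is given with the members.

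As a check of the label, the endothelial genes PECAM1 and CDH5 were bright on every array in their brightest probe sets, at signals of 5520 to 9079 and of 8524 to 11246. Their other probe sets had log2 differences of -1.14 and -1.61 in regenerated cells against passage 1 (limma adjusted p = 0.0253 and 0.0905). VWF and KDR, which also define endothelium, were dim, at 2.31 to 89.8 and 0.80 to 23.6. Of 16 tested endothelial identity genes, 2 fell at passage 4 against passage 1, where 2.95% of all named genes fell. In regenerated cells against passage 1, 1 rose and 1 fell, where 2.66% of all rose and 3.28% fell. The summed signal of 11 fibroblast markers was 1434 to 1673 at passage 1, 6102 to 10163 at passage 4 and 2400 to 3504 in regenerated cells. Most of the passage 4 sum was POSTN, at 5059, 9212 and 4892, and 0 of 8 tested fibroblast markers were called there in limma (3 at an unadjusted p under 0.05). In regenerated cells 3 of the 8 rose against passage 1, where 2.66% of all 5494 named genes rose. Among them were FAP, from 13.5 to 37.5 up to 267 to 484, and THY1, from 31.4 to 89.7 up to 336 to 573. FAP entered the test only through the regenerated arrays, where it was high, so its call supports nothing. LUM, also among the 8, was above the filter on 0 passage 1, 3 passage 4 and 2 regenerated arrays. Its place in the count supports nothing either. The summed signal of 11 smooth muscle markers was 19218 to 41618, 20108 to 37364 and 35641 to 51350, and that of 11 leukocyte markers 296 to 1124, 203 to 219 and 218 to 318, in the same order of groups. The 5′ minus 3′ log2 difference of GAPDH, a sign of how whole the RNA is, was 0.19 to 0.25 at passage 1, 0.14 to 0.46 at passage 4 and -0.02, -1.07 and -1.52 on the regenerated arrays. PTPRC, which defines leukocytes, was at 3.80 to 25.8 on the 9 arrays. The part of these other cell types and of RNA quality in the results was not tested, and in RNA of whole cultures fewer cells of a type and less RNA per cell cannot be told apart.

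CDKN1A encodes p21, the inhibitor through which p53 stops the cycle. Its signal was 3832, 6105 and 4942 on the passage 1 arrays, 3814, 4051 and 3954 on the passage 4 arrays and 5498, 5513 and 7642 on the regenerated arrays. The passage 4 arrays were low and close together, near the lowest passage 1 array, and all lay below the regenerated arrays. On the log2(signal + 16) scale, which all log2 differences here use, passage 4 differed from passage 1 by -0.31 (SE 0.186, 3 arrays against 3, limma adjusted p = 0.417). As a ratio this was 0.81 with a 95% interval of 0.61 to 1.07. Regenerated cells differed from passage 1 by 0.33 (SE 0.186, limma adjusted p = 0.326), and those groups overlapped.

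Passage 4 lay below regenerated cells in CDKN1A by -0.64 (SE 0.186, limma adjusted p = 0.0443). This call held in 10 of 20 alternative settings. It was lost when every probe set was tested (adjusted p = 0.0662) and when the variance had no intensity trend (0.0911). It was lost without any of the 3 passage 4 arrays, with adjusted p of 0.0993 to 0.121. It was also lost without passage 1 array 3 (adjusted p = 0.0544), regenerated array 2 (0.0708) or regenerated array 3 (-0.48, adjusted p = 0.154). The lowest passage 1 value belonged to array 1, the array that shares its spike-in kind with passage 4. With the kind as a block the passage 4 difference from passage 1 was 0.04 and that from regenerated cells -0.12 (limma adjusted p = 0.967 and 0.861).

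CDKN1B encodes p27, an inhibitor of the cyclin E and cyclin A kinases that builds up in resting cells. Its brightest probe set gave signals of 1100, 896 and 682 at passage 1, 450, 578 and 619 at passage 4 and 2301, 1265 and 1162 in regenerated cells. The 3 groups did not overlap: passage 4 was lowest, passage 1 intermediate and regenerated highest. Passage 4 differed from passage 1 by -0.67 (SE 0.275, limma adjusted p = 0.200) and regenerated cells by 0.77 (SE 0.275, limma adjusted p = 0.127), so neither step passed the threshold. Passage 4 was below regenerated cells by -1.44 (SE 0.275, limma adjusted p = 0.00791), a call that held in 19 of 20 alternatives.

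The exception for CDKN1B was the fit with the array kind as a block. There the difference from regenerated cells was -1.92 (limma adjusted p = 0.0989), larger in size than before but with a wider error. Its passage 4 difference from passage 1 was then -0.99, set against passage 1 array 1 alone (limma adjusted p = 0.278). A dimmer probe set of the gene read 73.6, 70.4 and 57.5 at passage 1, 60.7, 42.6 and 41.9 at passage 4 and 108, 43.3 and 128 in regenerated cells. Its passage 4 difference from regenerated cells had the same sign, -0.68, with overlapping groups and an adjusted p of 0.216 in limma. The remaining probe set of CDKN1B was above the filter's percentile on 0 of 9 arrays and was not tested, with signals of 1.16 to 37.9.

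CDKN2C encodes p18, an inhibitor of CDK4 and CDK6. Its signal was 61.6, 2.18 and 5.54 at passage 1, 142, 56.0 and 161 at passage 4 and 6.28, 3.87 and 10.8 in regenerated cells. It was high on the 3 passage 4 arrays and on passage 1 array 1, and near the floor on the other 5, the same division of the arrays that the spike-in transcripts show. It entered the test through those 4 arrays, the only ones above the filter's percentile. Passage 4 differed from passage 1 by 2.02 (SE 0.526, limma adjusted p = 0.0512), with 1 passage 1 array inside the passage 4 range, and from regenerated cells by 2.47 (SE 0.526, limma adjusted p = 0.0119), with all arrays higher.

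For CDKN2C these values changed with the array kind as a block, without 1 array and with the pseudocount. Passage 1 array 1 read 61.6, while the other passage 1 arrays and the regenerated arrays lay near the floor. The difference from passage 1 was 3.33 with a pseudocount of 1 and 1.09 with 64, and that from regenerated cells 3.87 and 1.32. Without passage 1 array 1 the passage 4 difference from passage 1 was 2.67 (limma adjusted p = 0.0036). With the kind as a block it was 0.70 against passage 1 and 0.50 against regenerated cells (limma adjusted p = 0.630 and 0.725). The call against regenerated cells was also lost without passage 4 array 3 (2.22, adjusted p = 0.0511) and without regenerated array 2 (2.37, adjusted p = 0.0509). The part of the array kind in the CDKN2C values cannot be told apart from that of passage 4, since every regenerated array is of the other kind.

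**Figure D1:**
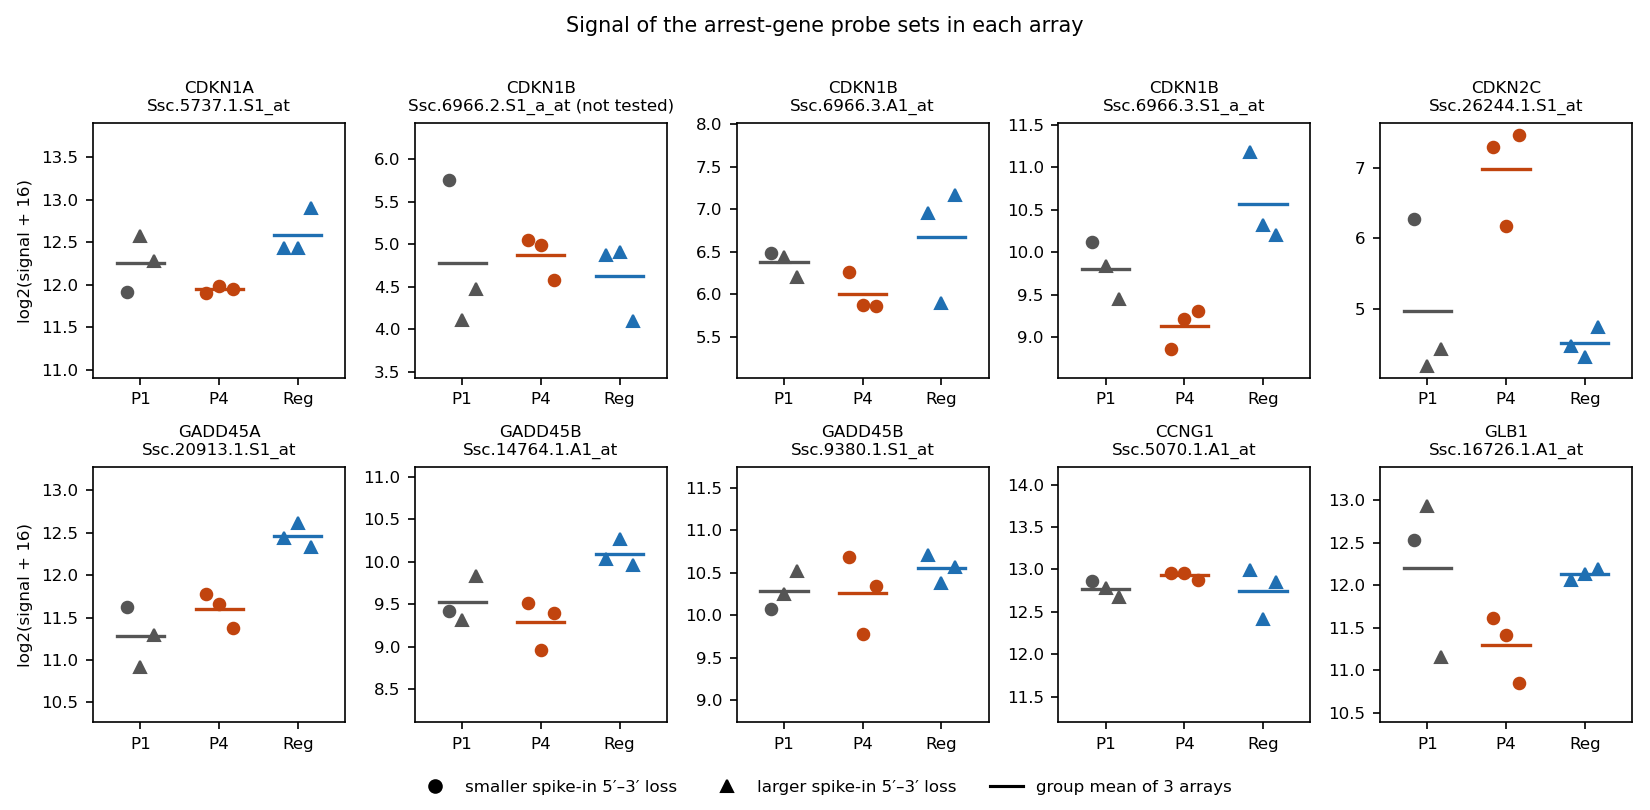
Signal of each of the 10 member probe sets on the 9 arrays, as log2(signal + 16) on the vertical axis with the 3 groups along the horizontal axis. Circles are arrays with the smaller 5′ loss of the spiked-in transcripts, triangles those with the larger loss, and bars are group means. GADD45A is highest in the 3 regenerated arrays, the brightest CDKN1B probe set falls in 3 separate levels, and CDKN2C is raised on all 4 circles.

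GADD45A, a p53 and stress target whose protein binds p21, PCNA and the kinase MAP3K4 (MEKK4), was the member that stood apart in regenerated cells. Its signal was 3129, 1923 and 2504 at passage 1, 3505, 3216 and 2648 at passage 4 and 5513, 6276 and 5146 in regenerated cells. Every regenerated array was above every other array, while passage 4 and passage 1 overlapped. The fibroblast markers FAP and THY1 and the GAPDH 5′ minus 3′ difference moved in the same arrays, and their part in the GADD45A values was not tested. Regenerated cells were above passage 1 by 1.18 (SE 0.190, limma adjusted p = 0.00531), a ratio of 2.27 with a 95% interval of 1.70 to 3.03. This call held in all 20 alternatives, with differences of 1.00 to 1.35. The fit blocked on the array kind gave 1.35 (limma adjusted p = 0.00339).

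At passage 4 the GADD45A difference from passage 1 was 0.33 (SE 0.190, limma adjusted p = 0.391), and -0.01 with the array kind as a block. Passage 4 was below regenerated cells by -0.86 (SE 0.190, limma adjusted p = 0.0139). That difference was -1.36 with the kind as a block (limma adjusted p = 0.0830). It also missed the threshold without passage 4 array 3 (-0.74, adjusted p = 0.0649) and without regenerated array 2 (-0.78, adjusted p = 0.0600).

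GADD45B, the family member induced by TGF-β and inflammatory signals, was read by a pair of probe sets that differed. The dimmer of the pair gave 668, 619 and 899 at passage 1, 719, 483 and 661 at passage 4 and 1029, 1215 and 986 in regenerated cells. All regenerated arrays lay above all others, and passage 4 overlapped passage 1. The differences were -0.23 for passage 4 and 0.57 for regenerated cells against passage 1 (limma adjusted p = 0.630 and 0.150). Passage 4 against regenerated cells gave -0.79 (SE 0.216, limma adjusted p = 0.0334), which held in 13 of 20 alternatives. Blocked on the array kind it was -0.64 (limma adjusted p = 0.408).

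Leaving out an array ended the GADD45B call in 5 of 9 cases: each passage 4 array (adjusted p = 0.0514, 0.128 and 0.0774 without arrays 1, 2 and 3) and regenerated arrays 2 and 3 (0.120 and 0.0782). The brighter GADD45B probe set read 1060, 1204 and 1450 at passage 1, 1626, 860 and 1279 at passage 4 and 1657, 1314 and 1501 in regenerated cells. All 3 groups overlapped there, and the differences were -0.02, 0.27 and, for passage 4 against regenerated cells, -0.29 (limma adjusted p = 0.980, 0.537 and 0.457). Blocked on the array kind the last was 0.03 and turned its sign. The GADD45B difference between passage 4 and regenerated cells therefore rests on 1 of its 2 probe sets.

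CCNG1 encodes cyclin G1, a p53 target that brings phosphatase PP2A to MDM2. Its signal was 7450, 7032 and 6500 at passage 1, 7951, 7914 and 7512 at passage 4 and 8109, 5460 and 7356 in regenerated cells. All passage 4 arrays were above all passage 1 arrays, but by little. The difference was 0.16 with a 95% interval of -0.17 to 0.49 (limma adjusted p = 0.632), so any rise lay below 0.49 at that confidence. Regenerated cells overlapped both other groups, at -0.02 from passage 1 (limma adjusted p = 0.958). Passage 4 differed from them by 0.18, and with the block by 0.04 from regenerated cells and 0.06 from passage 1.

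GLB1 encodes lysosomal β-galactosidase, the enzyme behind the senescence stain. Its signal was 5906, 7786 and 2274 at passage 1, 3131, 2719 and 1832 at passage 4 and 4280, 4491 and 4681 in regenerated cells. Passage 4 was lower than the first 2 passage 1 arrays and overlapped the last, and it lay below every regenerated array. Passage 4 differed from passage 1 by -0.91 (SE 0.363, 95% interval -1.70 to -0.12, limma adjusted p = 0.187) and from regenerated cells by -0.84 (limma adjusted p = 0.153). Blocked on the array kind these were -1.24 and -1.33 (limma adjusted p = 0.328 and 0.312).

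Passage 1 array 3 decided the GLB1 result. Without it the difference of passage 4 from passage 1 was -1.43 (SE 0.225, limma adjusted p = 0.00879) and that from regenerated cells -0.84 (limma adjusted p = 0.0217). That array also had the highest leukocyte marker sum, 1124 against 296 and 347 on the other passage 1 arrays; its part in the GLB1 value was not tested. Over the 20 alternatives the difference of passage 4 from passage 1 ran from -1.43 to -0.55.

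The groups did not overlap for 2 of 9 member probe sets between passage 4 and passage 1, CDKN1B and CCNG1, which moved in opposite directions, and 24.9% of all tested probe sets were apart in that comparison. Between regenerated and passage 1 cells 3 of 9 were apart, against 23.0% of all, and between passage 4 and regenerated cells 6 of 9, against 36.2%. CDKN2C, among those 6, entered the test only through the arrays on which it was high, so its separation supports nothing. The median difference over the 9 member probe sets was -0.23, 0.30 and -0.68 in the 3 comparisons in that order, beside 0.04, -0.01 and 0.01 over all tested probe sets.

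**Figure D2:**
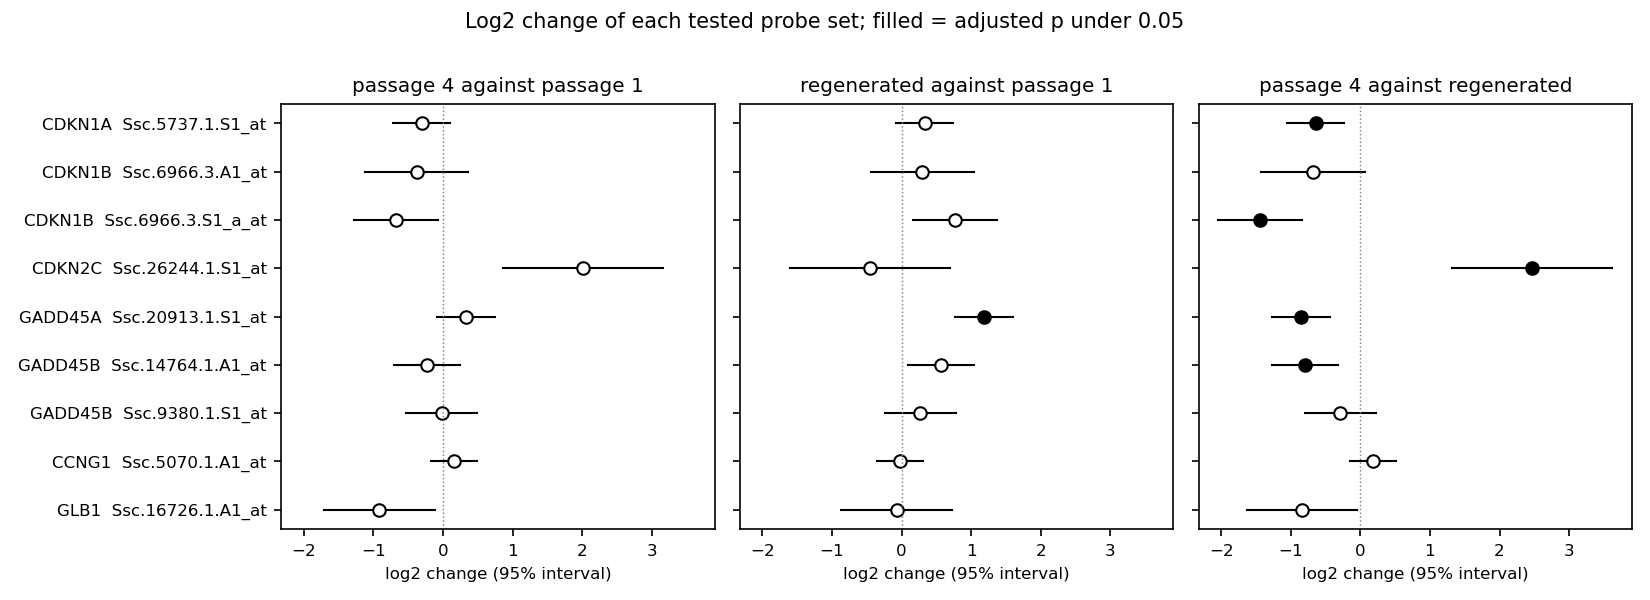
Log2 difference of each of the 9 tested member probe sets in the 3 comparisons, on the scale of log2(signal + 16), with its 95% interval. Filled points have a limma adjusted p under 0.05: none for passage 4 against passage 1, GADD45A for regenerated against passage 1, and 5 for passage 4 against regenerated cells.

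**Figure D3:**
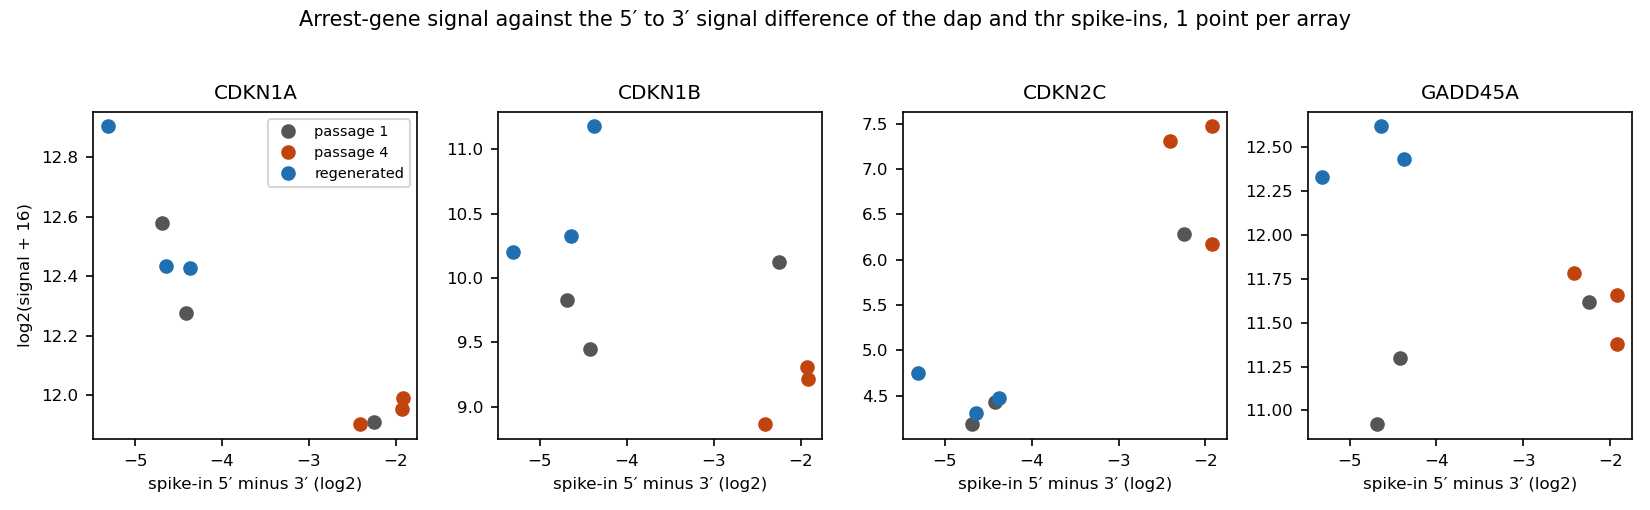
Signal of CDKN1A, CDKN1B, CDKN2C and GADD45A on each array, as log2(signal + 16), against the log2 difference of the 5′ and 3′ signals of the spiked-in bacterial transcripts on that array. The array of passage 1 that lies with the passage 4 arrays on the horizontal axis also has the lowest CDKN1A and the highest CDKN2C signal of its group, while its CDKN1B signal is the highest of its group.

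Around the members, other genes that p53 switches on were read through 1 probe set each, the brightest of the gene. Of 42 listed p53 targets 22 were tested. At passage 4 against passage 1, 0 rose and 1 fell, where 1.87% of all 5494 named genes rose and 2.95% fell. The list's median difference was 0.15, beside -0.02 over all genes. The gene that fell was PML, which organises nuclear bodies and is also induced by interferon: 471, 518 and 426 at passage 1, 159, 175 and 185 at passage 4 and 266, 199 and 247 in regenerated cells. PML differed by -1.37 at passage 4 (SE 0.208, limma adjusted p = 0.00509). With the array kind as a block it was the same -1.37 (limma adjusted p = 0.0549). Its groups did not overlap, and its second probe set gave -1.56 with an adjusted p of 0.110 in limma.

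The other p53 targets did not pass the threshold at passage 4, and 5 of the 22 had an unadjusted p under 0.05. The largest upward difference, singled out after its value was seen, was that of PERP, a junction protein, at 1.19 (limma adjusted p = 0.140), with 181 to 360 at passage 1 and 507 to 654 at passage 4. BAX, which opens the mitochondrial membrane in apoptosis, differed by 0.43, FAS, a death receptor, by 0.68, SESN1, a stress-induced brake on mTORC1, by 0.20, RRM2B, the p53-induced ribonucleotide reductase subunit, by 0.51, BTG2, an antiproliferative factor, by -0.05 and CCNG2, the cyclin G paralogue of CCNG1, by -0.59 (limma adjusted p from 0.299 to 0.928). PLK2, a p53-induced kinase of the polo family, read 2070, 2061 and 2520 at passage 1, 2857, 2796 and 2884 at passage 4 and 1526, 1070 and 1142 in regenerated cells. Its 3 groups did not overlap. The difference of passage 4 from passage 1 was 0.36, short of the threshold (limma adjusted p = 0.273).

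In regenerated cells against passage 1, 0 of the 22 p53 targets rose and 3 fell, where 2.66% of all genes rose and 3.28% fell. They were PML at -0.95, PLK2 at -0.83 and EI24, an apoptosis-linked protein of the endoplasmic reticulum, at -1.66 (limma adjusted p = 0.0242, 0.0182 and 0.0184). Leaving out 1 array gave 0 to 4 called in that comparison. GADD45A, a p53 target itself, was counted among the members and moved the other way. Against regenerated cells passage 4 was higher in 3 targets, where 5.86% of all genes were higher and 4.88% lower: PLK2 by 1.20, EI24 by 1.88 and BAX by 1.19 (limma adjusted p = 0.00238, 0.00647 and 0.0193). With the array kind as a block limma called 0 of the 22: PLK2 was at 1.34, EI24 at 2.40 and BAX at 0.51 (adjusted p = 0.0895, 0.104 and 0.579). EI24 had another probe set at 0.15 in that comparison, and at 0.09 for regenerated against passage 1. The remaining probe set of EI24 was at -1.75 for regenerated against passage 1 (limma adjusted p = 0.0339), so its probe sets disagreed.

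In their brightest probe sets the genes that act on p53 gave no call in limma in any of the 3 comparisons. Of 23 listed regulators 13 were tested, with 0 up and 0 down each time, 1 at an unadjusted p under 0.05 each time, and medians of 0.02, -0.08 and 0.03. ATM, the kinase that senses DNA breaks, differed by -0.37 at passage 4 against passage 1, and CHEK1, the checkpoint kinase of replication stress, by 0.29 (limma adjusted p = 0.479 and 0.589). Other probe sets of CHEK1, USP7 and YY1 were higher at passage 4 than in regenerated cells, by 1.95, 1.83 and 1.20 (limma adjusted p = 0.0147, 0.0106 and 0.0192). Those of RPL23 and MAPK14 gave no call there.

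Among the other inhibitors, Rb relatives and G1 regulators, 13 of 35 listed genes were tested. At passage 4 against passage 1, 1 rose and 0 fell, where 1.87% of all named genes rose and 2.95% fell. The gene that rose was CDKN3, a phosphatase that acts on CDK2 and whose own expression rises in dividing cells. Its signal was 378, 384 and 383 at passage 1, 753, 918 and 865 at passage 4 and 571, 486 and 355 in regenerated cells. CDKN3 differed by 1.11 (SE 0.209, limma adjusted p = 0.0137). The difference was 1.12 with the array kind as a block (adjusted p = 0.11). CDKN2D, the p19 inhibitor, RBL2, an Rb relative found in the DREAM complex, and CCND2, a D-type cyclin, differed by 0.15, 0.67 and 0.40 and did not pass (limma adjusted p from 0.221 to 0.864).

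In regenerated cells 0 of these 13 genes rose or fell against passage 1 in limma, with 2 at an unadjusted p under 0.05. Against regenerated cells passage 4 was higher in 3 of the 13 and lower in 0, where 5.86% of all genes were higher and 4.88% lower. These were CDKN3 by 0.84, CDK2, the kinase that p21 and p27 inhibit, by 0.92, and CKS1B, the cofactor that helps to mark p27 for destruction, by 0.74 (limma adjusted p = 0.0224, 0.0369 and 0.00668). All 3 calls were lost with the array kind as a block, at 0.86, 1.67 and 0.75 (limma adjusted p = 0.256, 0.087 and 0.167). CKS1B read 2226, 2239 and 2221 at passage 1, 3204, 3071 and 3291 at passage 4 and 1746, 1913 and 2040 in regenerated cells. These groups did not overlap, in the reverse order of CDKN1B: CKS1B was highest at passage 4, where CDKN1B was lowest.

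Of genes that p21 is known to hold down through DREAM and Rb, 10 of 27 tested rose at passage 4 and 0 fell. Of all named genes 1.87% rose and 2.95% fell there. The count of 10 includes HMMR, and it changed with the array kind as a block and with single arrays left out. The list held 50 genes, and 19 of the 27 had an unadjusted p under 0.05 against passage 1. The difference was above 0 in 26 of 27, beside 48.1% of all genes, with a median of 0.91 beside -0.02. The largest were CENPF, a kinetochore protein, at 1.91, TYMS, thymidylate synthase, at 1.79, CCNA2, the S and G2 phase cyclin, at 1.52, and HMMR, a spindle protein, at 1.47 (limma adjusted p = 0.0069, 0.0443, 0.0126 and 0.0437). HMMR entered the test through the 3 passage 4 arrays and 1 passage 1 array, the only ones above the filter, so its call supports nothing. CCNA2 read 118, 69.3 and 76.3 at passage 1, 274, 240 and 321 at passage 4 and 72.9, 56.3 and 39.1 in regenerated cells. All passage 4 arrays were above all other arrays.

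TOP2A, the mitotic topoisomerase, and PCNA, the replication clamp that p21 binds, were at 0.63 and 0.35 at passage 4 and did not pass (limma adjusted p = 0.0938 and 0.448). With the array kind as a block 27 of 27 genes of the DREAM and Rb list were above 0, with a median of 1.20, but 1 was called. Leaving out 1 array gave 2 to 11 called, with 2 without passage 1 array 2 or passage 4 array 3, 3 without passage 4 array 1 or 2, and 4 without passage 1 array 3. With no filter on dim probe sets 6 were called. In the block fit the standard error over all probe sets was 0.348 at the median, against 0.266 in the main fit. TYMS moved to 0.65 in the block fit (limma adjusted p = 0.582). Against regenerated cells 17 of the 27 were higher at passage 4 and 0 lower, where 5.86% of all genes were higher and 4.88% lower. The median was 1.19, and 11 were higher without passage 4 array 3 or regenerated array 3. With the block limma called 0 at a median of 1.54. Regenerated against passage 1 cells gave 0 calls in limma and 2 genes at an unadjusted p under 0.05, with a median of -0.28 and 3 of 27 above 0.

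**Figure D4:**
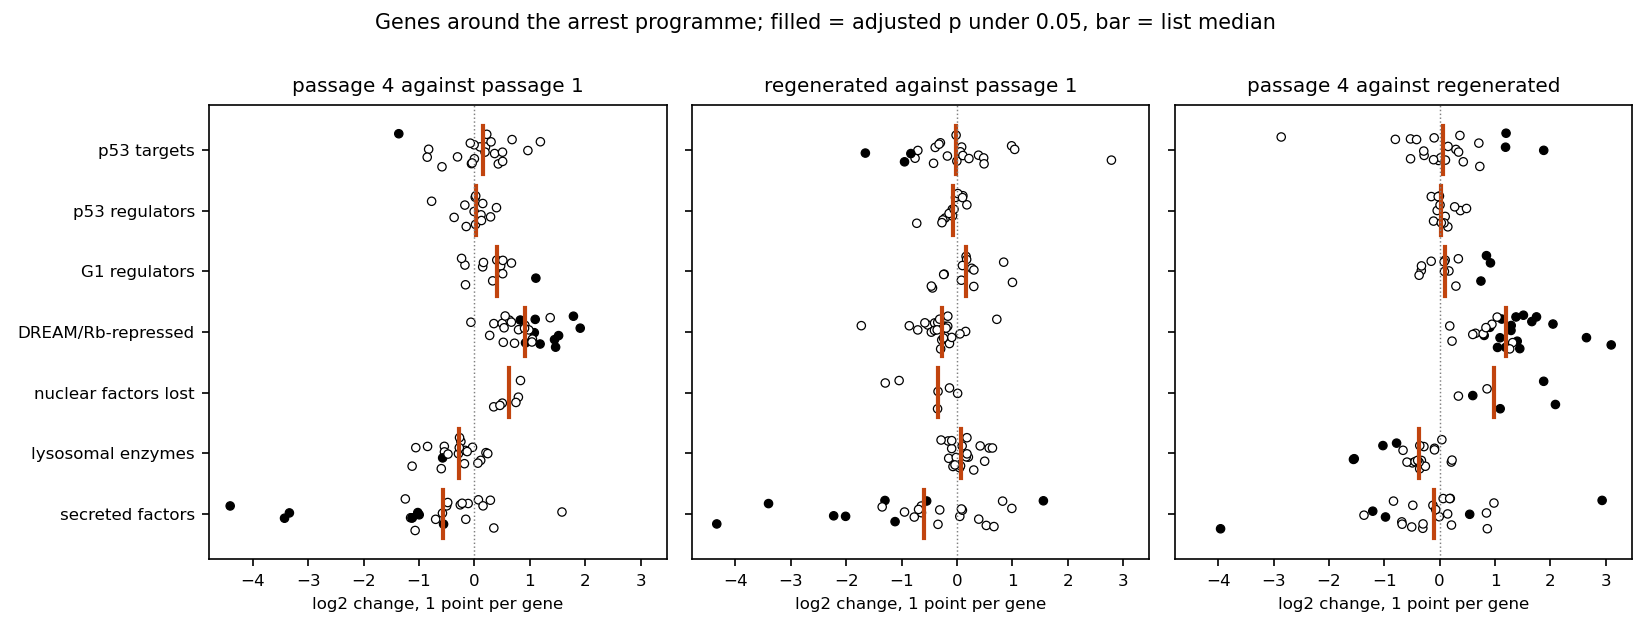
Log2 difference of each tested gene of 7 gene lists around the members, on the scale of log2(signal + 16), by comparison. Filled points have a limma adjusted p under 0.05 and bars are list medians: the genes held down through DREAM and Rb have a median of 0.91 for passage 4 against passage 1 and of 1.19 against regenerated cells, while the p53 targets have medians of 0.15 and 0.06.

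The GADD45 family signals through MAP3K4 to the kinases p38 and JNK. Of 9 listed genes of the family and its partners 7 were tested, and at passage 4 against passage 1 limma called 0 and put 0 at an unadjusted p under 0.05. In regenerated cells 1 rose, where 2.66% of all genes did: MAP2K6 (MKK6), the kinase that activates p38. Its signal was 28.1, 52.3 and 26.2 at passage 1, 52.3, 36.6 and 66.6 at passage 4 and 1575, 1167 and 396 in regenerated cells. MAP2K6 was dim at both passages and high on every regenerated array. The difference from passage 1 was 4.19 (SE 0.440, limma adjusted p = 0.00068) and 4.10 with the array kind as a block (limma adjusted p = 0.00209). The size depends on the pseudocount, since 1 of 3 passage 1 arrays was above the filter: for MAP2K6 it was 4.69 with a pseudocount of 1 and 3.30 with 64. GADD45G, the other family member, and MAP3K4 differed from passage 1 by -0.08 and 0.17 in regenerated cells (limma adjusted p = 0.890 and 0.707). Against regenerated cells passage 4 was higher in 2 of the 7 and lower in 1, where 5.86% of all genes were higher and 4.88% lower. GADD45GIP1 was higher by 0.81, MAPK8 (JNK1) was higher by 0.96, and MAP2K6 differed by -3.78 (limma adjusted p = 0.0321, 0.0443 and 0.000885). These 3 calls were lost with the array kind as a block (limma adjusted p = 0.223, 0.623 and 0.0891).

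GLB1 works in the lysosome with other glycosidases, their activators and membrane proteins, of which 20 of 32 listed were tested. At passage 4 against passage 1, 0 rose and 1 fell, where 1.87% of all named genes rose and 2.95% fell. The gene that fell was LAMP2, a lysosomal membrane protein, at -0.57 (limma adjusted p = 0.0454, past the threshold in 5 of 20 alternatives). The list's median was -0.27. NEU1, the sialidase that forms a complex with GLB1, differed by 0.11 (limma adjusted p = 0.841). Regenerated cells gave 0 calls against passage 1 in limma and 1 gene at an unadjusted p under 0.05, with a median of 0.08. By brightest probe set, passage 4 was below regenerated cells in 4 of the 20, where 4.88% of all genes were. Among them were CTSD, a lysosomal protease, at -1.56 and GM2A, an activator of ganglioside breakdown, at -1.54 (limma adjusted p = 0.00923 and 0.0077). Another probe set of GUSB, also in the list, went the other way at 2.12 (limma adjusted p = 0.0211), and another of LAMP2 was at -0.69 (0.0395). CTSD read 1287, 3323 and 3373 at passage 1, 1075, 1104 and 1320 at passage 4 and 3250, 3017 and 4180 in regenerated cells. It was low on passage 1 array 1 as on the passage 4 arrays, and its difference was -0.19 with the array kind as a block (limma adjusted p = 0.779).

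Among secreted factors of senescent cells, 24 of 38 listed were tested. In their brightest probe sets 0 rose and 7 fell at passage 4 against passage 1. Of all named genes 1.87% rose and 2.95% fell there. The list's median was -0.57. Another probe set of TIMP2 rose there by 1.27 (limma adjusted p = 0.0075), while its brightest did not pass. IL6, the inflammatory cytokine, read 1143, 3624 and 2297 at passage 1, 174, 151 and 280 at passage 4 and 177, 232 and 156 in regenerated cells. Passage 4 and regenerated arrays overlapped, and all lay below passage 1. Against passage 1 IL6 differed by -3.34 and, in regenerated cells, by -3.40 (limma adjusted p = 0.00144 and 0.000862). Passage 4 was above regenerated cells in 2 of the 24 and below in 3, where 5.86% of all genes were higher and 4.88% lower. The median there was -0.10, and 0.08 with the array kind as a block. In regenerated cells 1 of the 24 rose and 7 fell against passage 1, where 2.66% of all genes rose and 3.28% fell, with a median of -0.60. The block fit gave 1 up and 9 down for regenerated cells against passage 1. With the array kind as a block, 1 rose and 1 fell at passage 4.

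Nuclear factors that senescent cells are known to lose were tested for 6 of 11 listed genes. In limma 0 rose or fell at passage 4 against passage 1, with 4 at an unadjusted p under 0.05. Of the 6 differences 6 were above 0, beside 48.1% of all genes, with a median of 0.63. LMNB1, the lamin whose loss marks senescence, read 393, 368 and 659 at passage 1, 621, 822 and 1018 at passage 4 and 451, 131 and 88.7 in regenerated cells. Passage 4 overlapped passage 1 (0.79, limma adjusted p = 0.393) and lay above regenerated cells by 2.09 (limma adjusted p = 0.0139, and 0.187 with the array kind as a block). HMGB1, a chromatin protein released by senescent cells, differed by 0.35 from passage 1 and did not pass. Against regenerated cells passage 4 was higher in 4 of the 6, where 5.86% of all genes were higher. These were LMNB1, TMPO, a lamin-binding protein, by 1.88, EZH2, the Polycomb methyltransferase, by 1.09, and H2AFZ, a histone variant, by 0.60. In limma 0 of the 6 were called with the array kind as a block, where TMPO was at 0.89, EZH2 at 1.89 and H2AFZ at 0.60 (adjusted p = 0.328, 0.0722 and 0.255).

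The genes whose signals followed a member's most closely over the 9 arrays, among 5494 named genes, are given as a description, since the arrays share groups and array kinds. CDKN1A was followed by TSC2, an inhibitor of mTORC1 signalling (Pearson r = 0.976), and BAG3, a co-chaperone (0.940). CDKN1B was followed by MAPK6, an atypical MAP kinase (0.974), and TGFBR1, a TGF-β receptor (0.963). CDKN2C was followed by ATP2A2, a calcium pump (0.982), and EPRS, a transfer RNA synthetase (0.975). GADD45A was followed by SLC7A7, an amino acid transporter (0.974), and MFSD6, a membrane transporter-like protein (0.970). For CCNG1 the closest were RPL7 (0.943) and KIF20A (0.914), and for GLB1 FAH (0.938) and NR4A3 (0.924). The brighter GADD45B probe set was followed less closely, by CHTF18 (0.926) and POLR2I (0.870).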

How the data were processed

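The authors deposited 1 linear intensity per probe set and array, a MAS5 signal per the submitters' processing notes, with version and scaling target not stated there. The mean trimmed by 2% was 500.1 on every array, so no further scaling was done. Gene symbols came from the platform annotation, and only probe sets with 1 symbol were named. Control probe sets (124) were removed, and a probe set entered the test where at least 3 of 9 arrays exceeded their own 40th percentile, which kept 15299. log2(signal + 16) was fitted with limma 3.58.1 under R 4.3.3 on all 9 arrays, with an intensity trend, a two-sided test, Benjamini-Hochberg adjustment over all tested probe sets and a threshold of 0.05. The members and the gene lists were chosen with earlier results of these data known. Named genes are all member probe sets, listed genes past the threshold with the largest differences (at most 4 per list and comparison), a set panel of arrest genes, and the 2 genes most like each member. Array pairs with identical values numbered 0 of 36. Arrays with the same replicate number did not deviate together (r from -0.138 to 0.186), so numbers were not treated as pairs. The number of arrays limits the precision. The fits were tested on simulated data. Alternatives were another pseudocount, filter, scaling or variance setting, only the 2 groups compared, blocks, and leaving out each array.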

Additional observations from a re-analysis of the deposited data

Results flagged for a closer look

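For 5 member probe sets the effect of passage 4 differed from that of regeneration. Among them CDKN2C entered the test only through the arrays on which it was high, so its call supports nothing. The same passage 1 arrays serve both effects, so the test of their difference is the direct comparison of passage 4 with regenerated cells. It gave -0.64 for CDKN1A, -1.44 for CDKN1B (its brightest probe set), 2.47 for CDKN2C, -0.86 for GADD45A and -0.79 for GADD45B (its dimmer probe set), on the log2(signal + 16) scale with limma adjusted p of 0.0443, 0.00791, 0.0119, 0.0139 and 0.0334. With the spike-in kind of array as a block the same values were -0.12, -1.92, 0.50, -1.36 and -0.64, and 0 passed the threshold in limma (2 at an unadjusted p under 0.05), beside 0.229% of all tested probe sets. The standard error over all probe sets was then 0.444 at the median, against 0.266. The part of the array kind was not tested beyond that fit.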

How the results depend on the processing

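The count of member probe sets past the threshold was recomputed under 20 alternatives. For regenerated against passage 1 it was 1 in all 20, GADD45A each time. For passage 4 against passage 1 it was 0, and became 1 with a pseudocount of 64 and with a replicate block (CDKN2C both times). Leaving out 1 array gave 0 to 1. For passage 4 against regenerated cells it was 5, and became 3 with a replicate block, 0 with the spike-in kind of array as a block, 6 with only the 2 groups compared (GLB1 added, adjusted p = 0.0192), and 1 to 5 when 1 array was left out. The causes were not tested. No member's difference was reversed past the threshold. Calls over all probe sets, 733, 840 and 1912, ranged over the alternatives from 150 to 1403, 291 to 1238 and 35 to 2419. With the array kind as a block they were 150, 926 and 35; with a replicate block the second was 554, and with only the 2 groups compared 479. The replicate block ended the calls of CDKN1A (adjusted p = 0.0528) and GADD45B (0.0594) in the third comparison and changed no other member's call besides CDKN2C in the first (0.0433, limma). The 3 arrays a group and the dim signal of CDKN2C limit what could be detected.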

Other observations

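Some listed genes were read by several probe sets that differed. CDK2 was 0.92 higher at passage 4 than in regenerated cells in its brightest probe set and 0.71 and 1.41 higher in the others (limma adjusted p = 0.0369, 0.214 and 0.0217). EI24 was at 1.88, 0.15 and 2.69 in the same comparison (limma adjusted p = 0.00647, 0.778 and 0.0033). LAMP2 fell by 0.57 at passage 4 against passage 1 in its brightest probe set and was at -1.40, -1.10 and -0.19 in the other 3 (limma adjusted p = 0.0454, 0.00395, 0.0542 and 0.827).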
